A study of Mus musculus with 4 samples.

Results

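The 9 genes described here are the STAT transcription factor genes Stat3, Stat4, Stat5a, Stat5b and Stat6, and the feedback genes Cish, Socs1, Socs2 and Socs3. They were taken by name from the 28032 listed features that have an exon length, and all 9 were found and passed the filter on low counts. RNA was sequenced from CD4+Foxp3+ regulatory T cells (Tregs) sorted from C57BL/6 mice aged 8 weeks, which were either Csnk2b-/- (called Csnk2b-deficient in the sample titles) or wild type (WT). Csnk2b encodes the beta subunit, the regulatory part, of protein kinase CK2. There were 4 libraries: Csnk2b-deficient and WT Tregs of the tracheal lymph node, which drains the airways, and Csnk2b-deficient and WT Tregs of the spleen. Each genotype and tissue thus had 1 library, so that each genotype is represented by 2 libraries from different tissues. How Csnk2b was deleted, in which cells, and whether a library came from 1 animal or a pool were not given in the sources used here. Hence p-values measure only the spread between these libraries, which may be technical.

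STAT proteins wait in the cytoplasm until a cytokine binds its receptor and the attached JAK kinases phosphorylate them. They then pair, enter the nucleus and switch on target genes. Among those targets are Cish and the Socs genes, whose SH2-domain proteins damp the receptor or the JAK kinase, so that the pathway limits itself. In Tregs the interleukin-2 receptor signals mainly through STAT5A and STAT5B, which sustain Foxp3, while STAT3, STAT4 and STAT6 carry signals of interleukin-6 and interleukin-10, of interleukin-12 and of interleukin-4.

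The deposited tables held 5506113 exon reads for Csnk2b-deficient and 4737814 for WT lymph node Tregs, and 4877882 for Csnk2b-deficient and 6750695 for WT spleen Tregs. Csnk2b itself had 62.0 CPM in Csnk2b-deficient against 163 CPM in WT lymph node Tregs, and 25.6 CPM against 82.3 CPM in the spleen (CPM, exon reads relative to the TMM-scaled library size). Its log2 fold change of -1.54 ± 0.26 missed the threshold (SE, n = 2 per genotype, edgeR adjusted p = 0.0658). All 12 Treg and T cell markers had reads in every library, with a summed level of 14223 and 13571 CPM in Csnk2b-deficient and WT lymph node Tregs, and 5380 and 5796 CPM in the spleen. The sum does not show Foxp3, which had 123 and 570 CPM in the lymph node and 374 and 811 CPM in the spleen. The defining B cell gene Pax5, the NK cell gene Ncr1 and the neutrophil genes S100a8 and S100a9 had 0 reads in all 4 libraries. The 8 myeloid markers found summed to 320 CPM in Csnk2b-deficient and 49.9 CPM in WT lymph node Tregs, and to 6.92 and 10.4 CPM in the spleen. Lyz2 supplied most of the lymph node reads, 1291 and 187. Erythroid markers were highest in WT lymph node Tregs, at 70.4 CPM, against 7.23 CPM in the Csnk2b-deficient ones. B cell markers summed to 117 and 168 CPM in the lymph node and 32.2 and 28.3 CPM in the spleen, with Cd79b supplying most of the lymph node reads. CD8 T cell markers ranged from 12.5 to 52.5 CPM, dendritic cell markers from 3.80 to 35.1 CPM and NK cell markers from 1.22 to 7.02 CPM. The list of stroma and epithelium, almost all Pecam1 and Epcam, ranged from 131 to 261 CPM. The part of such cells in the results was not tested, and fewer cells of a type and less RNA per cell cannot be told apart in these bulk libraries. The labels' protocols give one RNA and library kit combination for samples 1 and 2 and another for samples 3 and 4. If those numbers follow the order of listing, every lymph node library was made with other kits than the spleen libraries, and tissue and kit cannot be told apart.

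The STAT dimer motif TTCNNNGAA, which reads the same on both strands, was searched in windows of 250 bases before to 50 bases after the annotated start of each gene, taken from RefSeq (GRCm38.p6, another build than the mm9 coordinates of the deposited tables). Windows were found for 8 of the 9 genes, 11 windows in all. The motif stood in 2 of these, those of Cish and Socs3, and in 8.30% of all 32851 windows. The spacing known for STAT6, with 1 more base between TTC and GAA, stood in 0 of the 11 windows and in 6.95% of all. The windows of Cish and Socs3 are shown because they hold the motif and because these feedback genes had the largest positive genotype differences, given next. Neither difference reached an adjusted p below 0.05, and a link between the motif and these differences was not tested. Motif matches are in capitals. In Cish (chr9:107296409-107296708, plus strand) the matches begin at the annotated start and just after it, and in Socs3 (chr11:117969317-117969616, minus strand) the match begins 154 bases before it.
Cish: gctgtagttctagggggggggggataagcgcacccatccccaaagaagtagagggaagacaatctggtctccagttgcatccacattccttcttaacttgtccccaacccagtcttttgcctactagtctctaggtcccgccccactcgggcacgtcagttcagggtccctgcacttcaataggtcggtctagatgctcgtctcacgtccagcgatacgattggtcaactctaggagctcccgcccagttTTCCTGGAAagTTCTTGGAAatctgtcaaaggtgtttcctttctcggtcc
Socs3: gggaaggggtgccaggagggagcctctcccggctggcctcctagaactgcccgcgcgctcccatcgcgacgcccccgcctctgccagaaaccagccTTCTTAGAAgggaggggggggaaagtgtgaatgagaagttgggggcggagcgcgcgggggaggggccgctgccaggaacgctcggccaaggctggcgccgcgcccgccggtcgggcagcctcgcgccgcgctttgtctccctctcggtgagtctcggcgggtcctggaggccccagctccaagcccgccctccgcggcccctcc

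Csnk2b-deficient and WT Tregs were compared to ask whether loss of the CK2 beta subunit goes with another transcript level of the pathway's factors and brakes. Cish was higher in Csnk2b-deficient Tregs by 1.46 times in the lymph node and 1.43 times in the spleen, and Socs3 by 1.67 and 1.27 times, while Stat5a and Stat5b were lower in both tissues. None of these differences passed the test. Of the 9 genes, edgeR's quasi-likelihood test on tissue plus genotype called 0 at an adjusted p below 0.05, and 1 (Cish) had an unadjusted p under 0.05. Of all 11113 genes tested it called 16, or 0.144%, and 4.88% had an unadjusted p under 0.05. DESeq2 and limma-voom also called 0 of the 9. The median log2 fold change was 0.12 over the 9 genes and 0.0087 over all genes tested. Summed myeloid markers also differed in the lymph node pair, with 320 CPM in Csnk2b-deficient against 49.9 CPM in WT Tregs. In the spleen they lay at 6.92 against 10.4 CPM. The part of such cells in the genotype differences was not tested. The fit has 1 residual degree of freedom, so SEs and p-values rest on how far the genotype difference varied between the tissues, moderated across genes.

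Cish, an SH2-domain inhibitor of interleukin-2 and T cell receptor signalling and a classic STAT5 target, had the largest log2 fold change of the 9 genes in absolute size on total exon reads, ahead of Stat5b (-0.52) and Socs3 (0.52) by far less than its SE. It had 521 CPM in Csnk2b-deficient against 356 CPM in WT lymph node Tregs, and 334 CPM against 233 CPM in the spleen. Both Csnk2b-deficient libraries stood above the WT library of their tissue, but the groups overlapped across tissues. This gave a log2 fold change of 0.53 ± 0.19 (SE of the edgeR fit, n = 2 per genotype, adjusted p = 0.839, unadjusted p = 0.0154). The ratio of reads was 1.46 in the lymph node (95% exact binomial interval 1.37 to 1.56) and 1.43 in the spleen (1.34 to 1.53). These intervals cover counting error only. Most Cish reads were not uniquely placed: the unique share was 14.3% and 15.8% in Csnk2b-deficient and WT lymph node Tregs, and 42.6% and 42.4% in the spleen. Cish (chromosome 9, 107198357 to 107205115, mm9) overlaps the listed features Gm17040 by 1167 bases and Gm17041 by 1459 bases. In GENCODE M21 transcripts, 9.35% of the 50-base words of Cish, 613 words, also occur elsewhere, spread over 514 other genes. Of these words, 386 and 214 are shared with Gm17041 and Gm17040. In Csnk2b-deficient and WT lymph node Tregs Gm17041 had only 19 and 10 exon reads and Gm17040 7 and 0. In the spleen they had 2 and 3, and 4 and 2. Where the other placements of the Cish reads lie was not given in the sources used here. On uniquely placed reads Cish had a log2 fold change of 0.46 ± 0.23 (SE, n = 2 per genotype, edgeR adjusted p = 0.900), smaller than those of Stat5b (-0.54) and Socs3 (0.52), with 91.7 and 69.5 CPM in Csnk2b-deficient and WT lymph node Tregs and 171 and 119 CPM in the spleen.

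Socs3, the brake on gp130-type receptors such as that of interleukin-6 and a classic STAT3 target, had 39.2 CPM in Csnk2b-deficient against 23.5 CPM in WT lymph node Tregs. In the spleen it had 207 CPM against 163 CPM. Both Csnk2b-deficient libraries again exceeded the WT library of their tissue, with a log2 fold change of 0.52 ± 0.25 (SE, n = 2 per genotype, edgeR adjusted p = 0.890), and its 95% interval, not adjusted for the number of genes, ran from -0.023 to 1.07. In the lymph node the value rested on 179 and 96 exon reads. Socs2, which acts on growth hormone and other receptors, had 56.1 and 62.8 CPM in Csnk2b-deficient and WT lymph node Tregs, and 76.6 and 55.3 CPM in the spleen. It was thus lower in one pair (log2 ratio -0.16) and higher in the other (0.47), and the joint value was 0.16 ± 0.29 (adjusted p = 0.948). Socs1, a potent inhibitor of JAK kinases downstream of interferon and interleukin-2 receptors, had 4.17 and 3.67 CPM in the lymph node (19 and 15 reads) and 50.5 and 48.7 CPM in the spleen (292 and 384 reads). Its pair ratios of 1.14 and 1.04 had counting intervals that included 1, and the 95% interval of its joint log2 fold change was wide, -0.81 to 1.01.

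Among the 5 STAT genes the negative log2 fold changes were those of the STAT5 paralogs, which transmit interleukin-2 signals. Stat5b had 43.8 CPM in Csnk2b-deficient against 83.1 CPM in WT lymph node Tregs, and 310 CPM against 348 CPM in the spleen. This gave a log2 fold change of -0.52 ± 0.24 (SE of the edgeR fit, n = 2 per genotype, adjusted p = 0.890). The lymph node pair alone gave -0.92 and the spleen pair -0.17. The lymph node value came from 200 and 340 exon reads, and with reads outside exons counted it was -0.25 and the joint value -0.22 ± 0.17. Whether the pairs differ was not tested, because each holds 1 library per genotype. Stat5a had 64.7 and 94.6 CPM in Csnk2b-deficient and WT lymph node Tregs, and 114 and 123 CPM in the spleen, with a joint log2 fold change of -0.32 ± 0.25 (adjusted p = 0.893). Both paralogs had the same order in both tissues, with the Csnk2b-deficient library below the WT one.

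Stat4, which transmits interleukin-12 signals and promotes interferon-gamma, had 333 CPM in Csnk2b-deficient against 272 CPM in WT lymph node Tregs, and 157 CPM against 113 CPM in the spleen. It was higher in the Csnk2b-deficient library of both pairs and had a log2 fold change of 0.38 ± 0.21 (SE, n = 2 per genotype, edgeR adjusted p = 0.890). Stat3, which carries interleukin-6 and interleukin-10 signals, had 199 and 192 CPM in the lymph node and 280 and 245 CPM in the spleen, a joint value of 0.12 ± 0.20 (adjusted p = 0.947). Stat6, the interleukin-4 factor, had 408 and 366 CPM in the lymph node and 275 and 288 CPM in the spleen, a joint value of 0.044 ± 0.19 (adjusted p = 0.982). The 95% intervals of the joint log2 fold changes, -0.33 to 0.56 for Stat3 and -0.38 to 0.47 for Stat6, include changes in either direction. Of the 9 genes, 5 were higher and 2 lower in both pairs, against 27.7% and 29.2% of all genes tested.

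**Figure D1:**
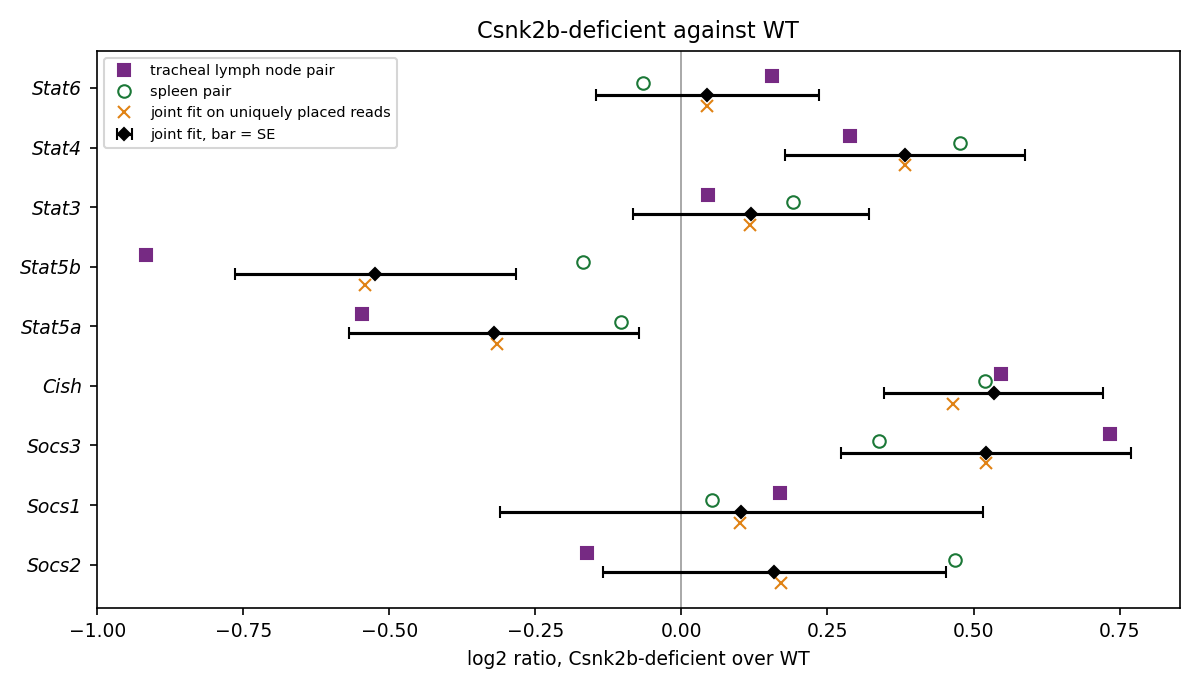
log2 ratio of Csnk2b-deficient over WT Tregs for the 9 genes. Squares are the lymph node pair and circles the spleen pair (1 library per genotype each), diamonds the joint edgeR fit with its SE, and crosses that fit on uniquely placed reads. Cish and Socs3 lie right of 0 and Stat5a and Stat5b left of 0 in both pairs, while Socs2 (-0.16 and 0.47) and Stat6 (0.16 and -0.066) lie on both sides.

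The rest of the pathway was read from the same fit. Of 105 other pathway genes listed, 87 were tested, and 2 rose and 1 fell in Csnk2b-deficient Tregs, against 0.126% of all genes higher and 0.018% lower. Their median log2 fold change was 0.13, and 17 had an unadjusted p under 0.05, against 4.88% of all genes tested. The lists were chosen with earlier results of these data known, so their counts beside these shares are a description only. The 4 JAK kinase genes, whose products phosphorylate STAT proteins, gave 0 calls. Their log2 fold changes were -0.25 ± 0.26 for Jak3, which pairs with the common gamma chain, -0.15 ± 0.17 for Jak1, -0.17 ± 0.30 for Tyk2 and 0.11 ± 0.21 for Jak2 (SE, n = 2 per genotype). Of the other 4 SOCS genes 0 were called by edgeR and 1 had an unadjusted p under 0.05. It was Socs7, at 1.37 ± 0.56, where the lymph node libraries gave 2.65 and the spleen libraries 0.26. The lymph node value of Socs7 came from 163 Csnk2b-deficient and 22 WT reads. Socs4, Socs5 and Socs6 had -0.60, -0.19 and 0.022.

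Of 13 genes of PIAS proteins, phosphatases and other brakes, 0 were called by edgeR and 2 had an unadjusted p under 0.05. They were Usp18, which restrains interferon receptor signalling (-1.16 ± 0.23, adjusted p = 0.134), and Asb2, a SOCS-box protein gene (1.60 ± 0.47, adjusted p = 0.525). Ptpn6, the SHP-1 phosphatase gene, and Pias1 had -0.34 ± 0.20 and 0.30 ± 0.22. DESeq2 and limma-voom each called Usp18, and called 50 and 60 of all 11113 genes tested. Of 20 receptor chains tested, edgeR called 0 and 6 had an unadjusted p under 0.05, against 4.88% of all genes tested. DESeq2 and limma-voom each called 4, the chains named next. Il6st and Il6ra, the chains of the interleukin-6 receptor upstream of STAT3, had -1.14 ± 0.21 and -1.42 ± 0.28. Il7r, upstream of STAT5, had 1.05 ± 0.22, and Ifngr1, a chain of the interferon-gamma receptor, had 1.08 ± 0.24. Of the 6 cytokine ligands tested 0 were called by edgeR, DESeq2 or limma-voom, and 2 had an unadjusted p under 0.05 by edgeR. Ebi3 had 1.41 ± 0.38, Il4 2.66 ± 1.09, Il10 0.52 ± 0.61 and Lif 0.47 ± 0.66. The value of Il4 came from few exon reads. They numbered 61 and 7 in Csnk2b-deficient and WT lymph node Tregs, and 23 and 6 in the spleen.

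Target genes of the 4 factors gave 3 calls, in the STAT4 and STAT5 lists. Of 10 STAT4 target genes, 2 rose, the interleukin-18 receptor chains Il18r1 (1.84 ± 0.22, edgeR adjusted p = 0.00656) and Il18rap (2.22 ± 0.29, adjusted p = 0.0124). The median of that list was 0.32. Ifngr2 and Furin, of the same list, had -1.01 ± 0.41 and 0.62 ± 0.40. Of 20 STAT5 target genes, 1 fell, Foxp3 (-1.66 ± 0.25, edgeR adjusted p = 0.0375). The Foxp3 call was lost under relative log expression (RLE) scaling, upper-quartile scaling, the filter at 5 CPM, on uniquely placed reads, on total gene reads and without the tissue term. The Il18r1 call was lost under RLE scaling and without the tissue term, and that of Il18rap in these and on uniquely placed reads. DESeq2 and limma-voom each called all 3, and also Il7r and Gzmb of the STAT5 list and Ahr and Il6ra of the STAT3 list. The median of the STAT5 list was 0.062, and Il7r, the protease gene Gzmb and the cytokine gene Lta had 1.05, 2.76 and 0.59. The 13 STAT3 targets gave 0 calls by edgeR, 2 values with an unadjusted p under 0.05 and a median of 0.22. Ahr, the aryl hydrocarbon receptor gene, had 1.90 ± 0.33 (adjusted p = 0.0747), Icos 0.42 and Hif1a -0.37. The 8 STAT6 targets gave 0 calls, 1 unadjusted p under 0.05 and a median of 0.23, with 0.65 for Ccr4, -0.73 for Gfi1 and -0.35 for Ccr8. The target lists share genes with the receptor and ligand lists.

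**Figure D2:**
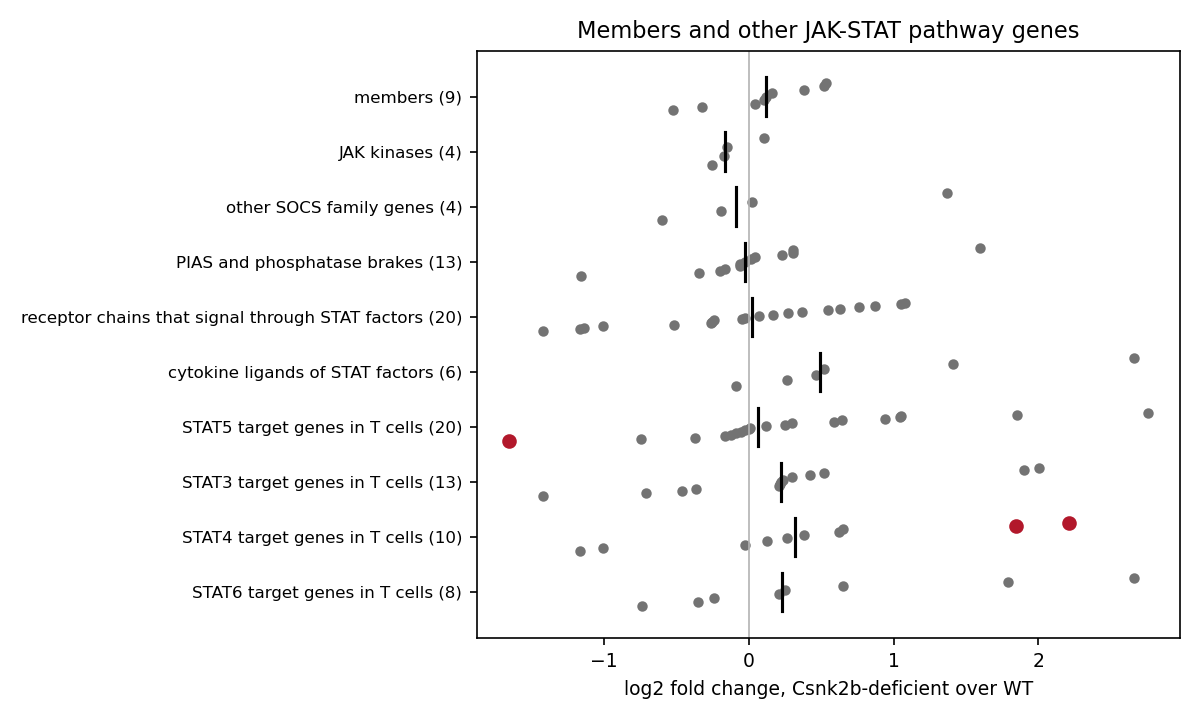
log2 fold change of Csnk2b-deficient over WT Tregs (joint edgeR fit) for the 9 members and the pathway lists described in the text, 1 point per gene, with the number tested in parentheses. Black bars are medians and large red points the calls, Foxp3 among the STAT5 targets and Il18r1 and Il18rap among the STAT4 targets; the members span -0.52 to 0.53.

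The level of each gene per exon length was calculated as RPKM (total exon reads scaled by exon length and by the gene reads of the library). In the lymph node Stat4, Stat6 and Cish led, with 68.8, 60.3 and 52.8 RPKM in Csnk2b-deficient and 58.0, 55.7 and 37.2 RPKM in WT Tregs. Stat3 followed at 13.6 and 13.5 RPKM, and Stat5a, Stat5b, Socs3, Socs2 and Socs1 all lay between 2.01 and 10.05 RPKM. The place of Cish rested on reads with more than 1 placement. Its annotated exons also cover 6419 of the 6759 bases of its span, against 3146 of 120041 for Stat4. Levels per exon length therefore compare less well between Cish and the other genes. Counting uniquely placed reads only, Cish had 7.56 and 5.89 RPKM in Csnk2b-deficient and WT lymph node Tregs, below Stat3. Values on unique reads, here and for the spleen, still divide by the full exon length. They come out too low for a gene with stretches where no read can be unique. In the spleen the order was another one. Socs3 and Stat6 led Csnk2b-deficient Tregs (64.5 and 56.3 RPKM), and Stat6 and Stat5b led WT Tregs (58.9 and 56.6 RPKM). Socs1 had 37.3 and 36.0 RPKM in Csnk2b-deficient and WT spleen Tregs, Stat3 26.5 and 23.2, Stat5a 14.4 and 15.5 and Socs2 7.24 and 5.23. The spleen values of Stat6 (56.3 and 58.9) and Stat5b (50.4 and 56.6) overlapped, as did those of Cish (46.9 and 32.7) and Stat4 (44.9 and 32.2). Still, Stat6 stood above Stat5b and Cish above Stat4 in each of the 2 libraries. The order of Cish and Stat4 again rested on reads with more than 1 placement. Counting uniquely placed reads only, Cish had 19.96 and 13.87 RPKM in Csnk2b-deficient and WT spleen Tregs, below Stat4 in both. In the lymph node the values of Stat4 (68.8 and 58.0) and Stat6 (60.3 and 55.7) overlapped too, with Stat4 above Stat6 in each library.

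**Figure D3:**
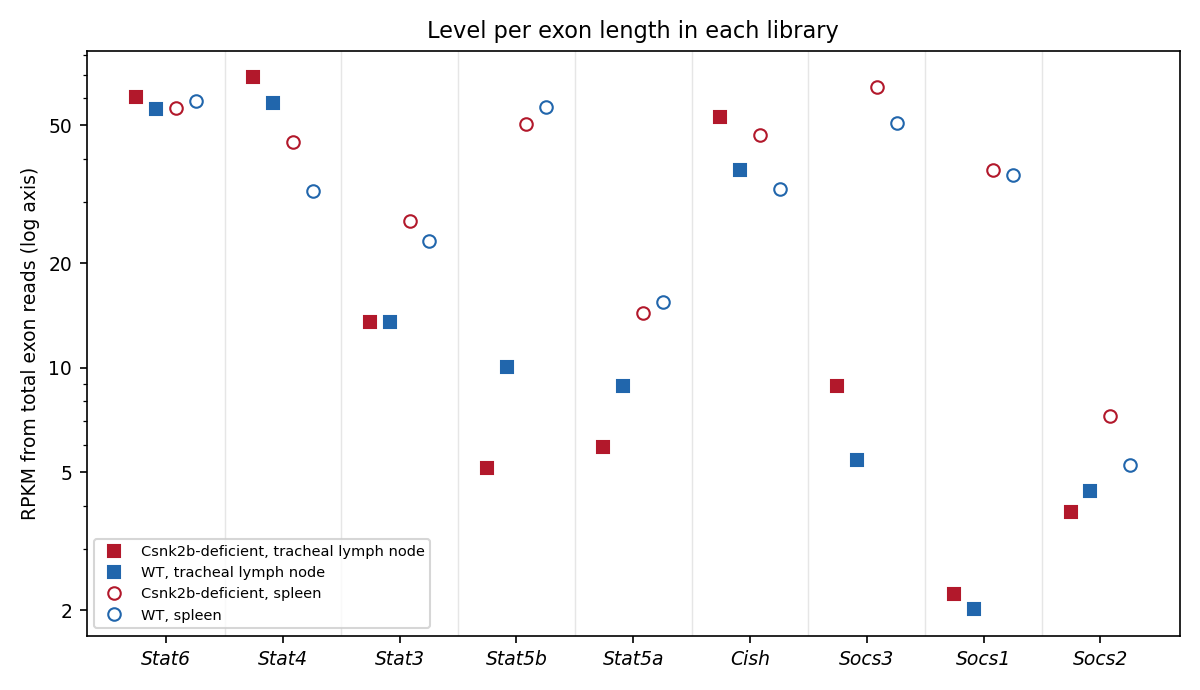
RPKM of the 9 genes on a log axis, 1 point per library. Squares are lymph node and circles spleen libraries, red Csnk2b-deficient and blue WT; Socs1, Socs3 and Stat5b have both lymph node libraries below both spleen libraries by at least 5 times, while the points of Stat6 lie close together.

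Lymph node and spleen Tregs were compared in the same fit to ask how far the 9 genes vary with the source of the cells. On exon reads Socs1, Socs3 and Stat5b were lower in lymph node Tregs by 12.6, 6.03 and 5.41 times, the last by 1.82 times when reads outside exons were counted too, and Stat4 was higher by 2.26 times. Cish was called higher, but its direction turned on uniquely placed reads. In all, 2 of the 9 genes rose and 3 fell in the lymph node libraries, where 23.3% of all genes tested rose and 22.2% fell. The share called, 5 of 9, stands beside 45.4% of all genes, so many calls are the rule in this comparison. Tissue and library kit cannot be told apart in it if the kits follow the order of listing. Marker sums differed between the tissues as well, and their part in these differences was not tested: Treg and T cell markers summed to 14223 and 13571 CPM in the lymph node against 5380 and 5796 CPM in the spleen. Foxp3 and Lrrc32, both of that list, went the other way in both genotypes. The median log2 difference was -0.42 over the 9 genes and -0.17 over all genes tested, and the median over all genes was -0.32 with upper-quartile scaling. Of the 9 genes, 3 were higher and 5 lower in the lymph node in both genotypes, against 38.7% and 44.2% of all genes.

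Socs1 had 4.17 and 3.67 CPM in Csnk2b-deficient and WT lymph node Tregs, against 50.5 and 48.7 CPM in the spleen. The tissues did not overlap, and the log2 difference was -3.66 ± 0.44 (SE, n = 2 per tissue, edgeR adjusted p = 6.21e-05). Socs3 had 39.2 and 23.5 CPM against 207 and 163 CPM, a difference of -2.59 ± 0.26 (adjusted p = 1.84e-05). Socs2 differed by -0.13 ± 0.29 (adjusted p = 0.738). Of the summed RPKM of the 4 feedback genes, Cish made up 78.0% and 75.8% in Csnk2b-deficient and WT lymph node Tregs, against 30.1% and 26.2% in the spleen. Those shares count every placed read of Cish. Cish differed by 0.63 ± 0.19 on total exon reads (adjusted p = 0.0174), and by -0.84 ± 0.23 on uniquely placed reads (adjusted p = 0.0195). Its reads with more than 1 placement numbered 2037 and 1227 in the lymph node and 1109 and 1057 in the spleen, while the unique reads numbered 340 and 231 against 822 and 779. In fits on tissue alone and on total exon reads, Cish lost its call without Csnk2b-deficient replicate 1 (0.88), Csnk2b-deficient replicate 2 (0.29) or WT replicate 1 (0.36), where replicate 1 is the spleen and replicate 2 the lymph node library.

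Stat5b had 43.8 and 83.1 CPM in Csnk2b-deficient and WT lymph node Tregs, against 310 and 348 CPM in the spleen. The log2 difference was -2.44 ± 0.25 (SE, n = 2 per tissue, edgeR adjusted p = 2.47e-05). Its paralog Stat5a differed by -0.59 ± 0.25, which missed the threshold (adjusted p = 0.0727). The RPKM ratio of Stat5b to Stat5a was accordingly 0.873 and 1.13 in the lymph node libraries, against 3.50 and 3.66 in the spleen libraries. Together the paralogs made up 7.19% and 13.0% of the summed STAT RPKM in Csnk2b-deficient and WT lymph node Tregs, and 33.7% and 38.7% in the spleen. Stat4 had a log2 difference of 1.18 ± 0.21 (adjusted p = 0.000800), with 333 and 272 CPM against 157 and 113 CPM. Without WT replicate 1, in a fit on tissue alone, Stat4 was not called (0.92). Stat6 and Stat3 differed by 0.46 ± 0.19 and -0.42 ± 0.20 (adjusted p = 0.0726 and 0.111). In fits on tissue alone that left out a lymph node library, Stat5a and Stat6 were called without Csnk2b-deficient replicate 2 (-0.36 and 0.34) and without WT replicate 2 (-0.85 and 0.56), and Stat3 without Csnk2b-deficient replicate 2 (-0.49). Of the 4 JAK genes, Jak3 and Tyk2 fell with -4.71 and -3.24, while Jak1 and Jak2 had 0.24 and -0.55 and were not called.

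**Figure D4:**
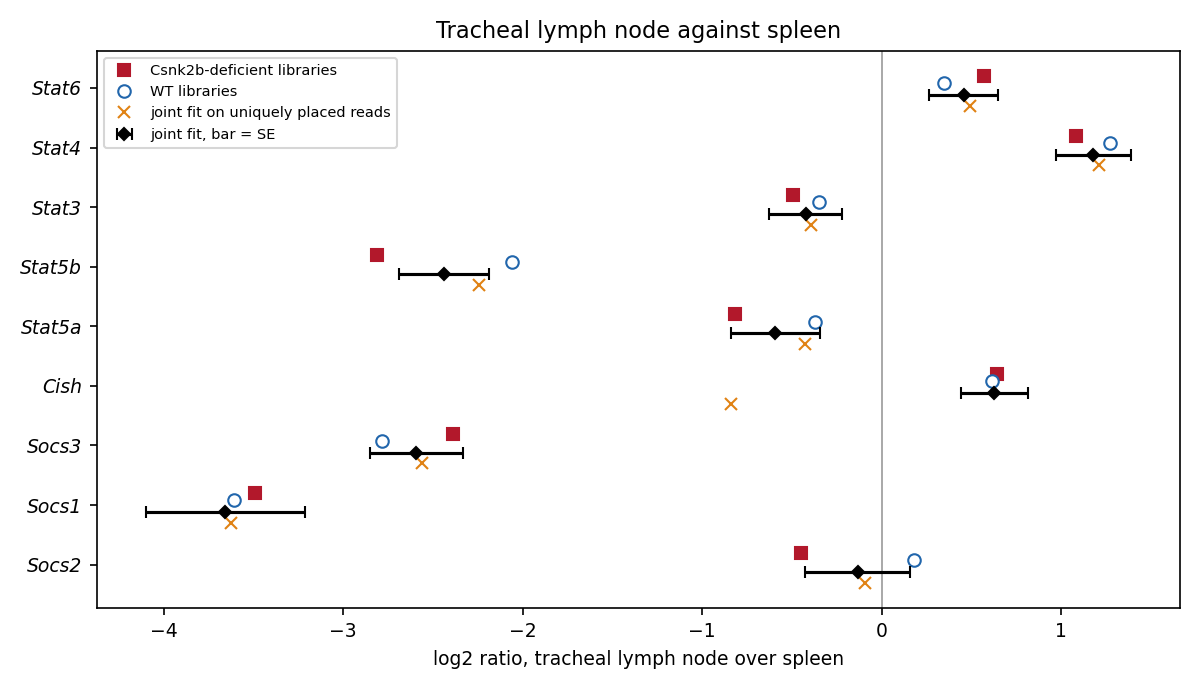
log2 ratio of lymph node over spleen Tregs for the 9 genes. Squares are the Csnk2b-deficient and circles the WT libraries, diamonds the joint edgeR fit with its SE, and crosses that fit on uniquely placed reads. Socs1, Socs3 and Stat5b lie below -2 in every estimate, and the cross of Cish (-0.84) lies on the other side of 0 from its diamond (0.63).

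Stat5b, Stat5a and Stat3 are neighbours on chromosome 11 (100642045 to 100800854 in all, mm9). A gap of 8626 bases separates Stat5b from Stat5a, and the spans of Stat5a and Stat3 overlap by 72 bases at their ends. Stat5a and Stat5b are close paralogs, which limits where reads can be placed. Of the 50-base words of GENCODE M21 transcripts, 608 occur in both paralogs, 8.21% of those of Stat5a. Of Stat5b exon reads, 95.5% and 97.9% were uniquely placed in Csnk2b-deficient and WT lymph node Tregs and 86.5% in both spleen libraries. On uniquely placed reads the tissue difference of Stat5b was -2.24 ± 0.26 and still called (edgeR adjusted p = 0.00036).

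The lymph node libraries also differed in where Stat5b reads lay. Of its uniquely placed gene reads, 81.0% and 68.4% lay outside annotated exons in Csnk2b-deficient and WT lymph node Tregs, against 24.1% and 23.9% in the spleen. Those are 815 and 722 reads outside exons in the lymph node, and 492 and 744 in the spleen. Stat3 had 34.9% and 39.0% outside exons in the lymph node against 8.95% and 8.08% in the spleen. Stat6 moved the other way, with 3.02% and 2.09% against 10.9% and 10.03%. Over all genes with at least 50 gene reads the median share was 16.7% and 14.5% in the lymph node and 20.6% and 19.6% in the spleen. The 90th percentile was 62.5% and 65.3% in the lymph node and 49.0% and 48.2% in the spleen, so that Stat5b lay above it in both lymph node libraries and below it in both spleen libraries. Exon-exon junction reads made up 3.00% and 3.82% of Stat5b exon reads in the lymph node, against 19.9% and 18.1% in the spleen. Stat5a and Stat3 had lower junction shares in the lymph node as well, with 5.42% and 3.88% against 23.2% and 22.6% for Stat5a and 10.04% and 8.64% against 24.2% and 23.5% for Stat3. For Stat4 the share was 41.6% and 42.8% against 44.9% and 43.8%. Stat6 had 18.48% and 13.54% against 25.16% and 25.29%, and Cish 1.09% and 0.686% against 3.06% and 4.03%. The median junction share over all genes with at least 50 gene reads was lower in the lymph node too. It was 13.10% and 12.5% in Csnk2b-deficient and WT lymph node Tregs, against 17.02% and 16.63% in the spleen. When all reads within a gene were counted, introns included, in a fit added after the data were seen, the tissue difference of Stat5b was -0.86 ± 0.17 (SE, n = 2 per tissue, edgeR adjusted p = 0.0035). That is a level 1.82 times lower in the lymph node, against 5.41 times on exon reads. In that count Stat5b had 168 and 199 CPM in Csnk2b-deficient and WT lymph node Tregs, against 311 and 356 CPM in the spleen. Stat5a was called with -0.65 ± 0.21 (adjusted p = 0.0333), and Stat3 turned to 0.054 ± 0.18 (adjusted p = 0.832). Socs1 and Socs3, with -3.74 and -2.74, and Stat4, with 1.51, had differences at least as large as on exon reads.

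**Figure D5:**
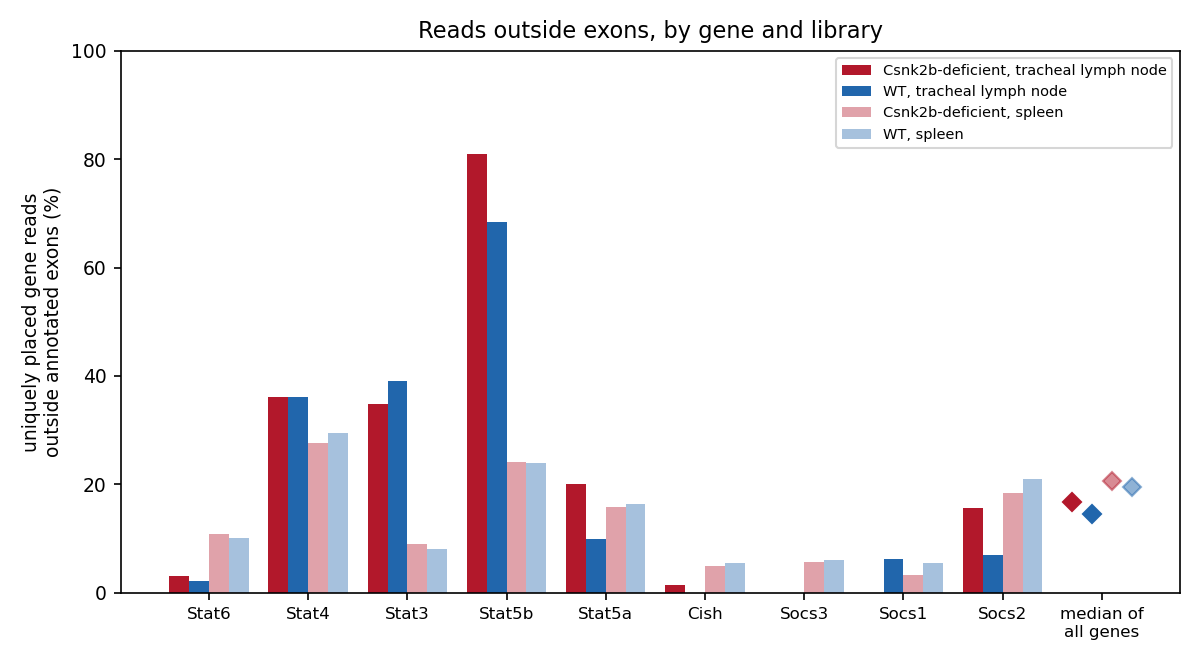
Share of uniquely placed gene reads outside annotated exons (percent, bars from 0) for the 9 genes in each library, with diamonds for the median over all genes with at least 50 gene reads. Stat5b reaches 81.0% and 68.4% in the lymph node libraries, against 24.1% and 23.9% in the spleen. The annotated exons of Cish cover 6419 of its 6759 bases, which leaves few bases outside them.

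On total exon reads Cish had both the largest absolute log2 fold change and the smallest unadjusted p of the 9 genes in the genotype comparison, while on uniquely placed reads Stat5b and Socs3 had larger fold changes and smaller p-values. The genes with the most similar pattern to it, by the root mean square difference of centred log2 CPM over the 4 libraries, were Nxt1 (0.0373), Slc25a20 (0.0380) and Ate1 (0.0380). With 4 libraries such likeness is a description only.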

How the data were processed

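Tregs of 2 genotypes and 2 tissues were sequenced on a MiSeq, and 1 table per library was deposited. Per the file headers, the deposited tables hold read counts per gene, as exon reads and gene reads, each unique and total. The submitters' processing notes name CASAVA 1.8.2 and mm9, and the aligner, annotation and use of strand were not given in the sources used here. Reads of overlapping, antisense and paralogous genes are therefore uncertain. Features without an exon length, 9551 of 37583, were not used. RPKM calculated from the counts matched the authors' deposited RPKM within 0.048% for genes with over 500 exon reads.

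Total exon reads were tested with edgeR 4.0.16 (R 4.3.3): filterByExpr, TMM, the robust quasi-likelihood test on tissue plus genotype, and Benjamini-Hochberg adjustment at 0.05. Each SE was derived from the F statistic, as the log2 fold change divided by its square root. Pair ratios use log2 CPM with a prior count of 2. Replicate numbers pair libraries by tissue, per the labels, and same-numbered deviations correlated at 0.783. Libraries of a pair differed beyond sampling noise (chi-square per degree of freedom 7.54 and 30.3). DESeq2 1.42.0 and limma-voom (limma 3.58.1), other scalings, filters, uniquely placed reads and, chosen after seeing the data, total gene reads were alternatives. The members and lists were chosen with earlier results of these data known. The text names, of each list, up to 4 genes of smallest unadjusted p, and the 3 genes nearest to the leading member. 1 short gene list is not reported here.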

Additional observations from a re-analysis of the deposited data

Results flagged for a closer look

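The genotype difference of 2 of the 9 genes had opposite directions in the tissues, each from 1 library per genotype, and the difference between the tissues was not tested. Socs2 had a log2 ratio of Csnk2b-deficient over WT of -0.16 in the lymph node and 0.47 in the spleen. Stat6 had 0.16 in the lymph node and -0.066 in the spleen, with exact binomial intervals of the ratio, for counting error only, of 1.04 to 1.19 and 0.895 to 1.02.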

How the results depend on the processing

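In the genotype comparison all 9 genes kept their direction and stayed uncalled under RLE scaling, upper-quartile scaling, both other filters, DESeq2, limma-voom, uniquely placed reads, total gene reads (added after the data were seen) and the fit with no replicate block. That last fit, without the pairing by tissue, called 0 genes in all and 0 pathway genes, against 16 and 3, and 29 genes had an unadjusted p under 0.05. All genes called numbered 4 under RLE scaling, 111 without a filter, 50 by DESeq2, 60 by limma-voom and 7 on uniquely placed reads. Pathway genes called numbered 0, 10, 10, 10 and 1 in these. Each pair alone gave from -0.16 to 0.47 for Socs2 and from -0.066 to 0.16 for Stat6. With 1 library left out the fit held genotype alone, so that tissue mixes into it. The lone library was assumed to vary like the others, 0 or 1 of all genes and 0 pathway genes were called, and directions turned. Without Csnk2b-deficient replicate 1 Socs1 had -2.68, Socs2 -0.081, Socs3 -1.28 and Stat3 -0.15. Without Csnk2b-deficient replicate 2 Stat4 had -0.25, Stat5a 0.10, Stat5b 0.55 and Stat6 -0.21. Without WT replicate 1 Stat4 had -0.13, Stat5b 1.12 and Stat6 -0.080, and without WT replicate 2 Socs1 had -0.81, Socs3 -0.39 and Stat3 -0.011. In the tissue comparison Socs1, Socs3 and Stat5b stayed called under all 13 alternatives, and Stat3 turned to 0.054 on total gene reads. Cish turned to -0.84 on uniquely placed reads, the cause was not tested, and it lost its call with upper-quartile scaling (0.47) and without the genotype term (0.63). On tissue alone, all genes called numbered 2322 without Csnk2b-deficient replicate 1, where Socs2 had 0.069, 7874 without Csnk2b-deficient replicate 2 and 2186 without WT replicate 1, where 3 of the 9 genes were called. Under the settings that keep every library, 71 tissue values of single genes stayed on their side of the threshold and 6 became calls. Low depth limits Socs1 in the lymph node, at 19 and 15 reads. Of the alternative pair ratios 105 stayed within the counting interval and 3 moved beyond it, all in lymph node Tregs: Cish on uniquely placed reads (0.40), and Stat4 (0.12) and Stat5b (-0.25) on total gene reads.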

Other observations

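Of 16 listed genes of cytokines that start STAT signalling, 6 had enough reads to be tested. Il2, the main STAT5 cytokine of T cells, had 0 reads in both lymph node libraries, and 2 and 0 reads in Csnk2b-deficient and WT spleen Tregs. A count of 0 allows up to 0.658 and 0.733 CPM in the lymph node libraries and 0.380 CPM in WT spleen Tregs, for counting error only. Il21, a STAT3 cytokine, had 4 and 0 reads in the lymph node and 8 and 6 in the spleen. Il12a and the epithelial cytokine gene Tslp had 0 reads in all 4 libraries. The STAT3 target Il17a, the effector cytokine of Th17 cells, had 0 reads in all 4 libraries as well. These genes were chosen after their values were seen.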
